A study of Mus musculus with 12 samples.

Results

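Liver RNA of A1cf -/- mice (KO) was compared with that of wild-type mice (WT) for the genes that encode histones, the proteins around which DNA is wound in chromatin. Each group held 6 libraries, from C57BL/6 mice aged 6 to 8 weeks, and the series describes the libraries of a group as biological replicates. A1CF binds RNA in liver and gut cells and is best known as the partner of the Apob-editing deaminase APOBEC1. How the deletion was built is not given in the sources used here, and each value is an average over whole liver tissue. The genes were those whose name begins with Hist1h, Hist2h, Hist3h or Hist4h, beside 8 histone variant genes (H1f0, H2afx, H2afy, H2afz, H2afv, H2afj, H3f3a and H3f3b). The former are the genes of the histone clusters, taken as replication-dependent by name alone, so that not each of them need be so. Genes were chosen by name and then by measured values: a gene was kept if it had 3 or more counts summed over the 12 libraries, a sum that does not use genotype. This left 53 genes, 45 from the clusters and the 8 variants, among 22733 gene names with 3 or more counts and 46882 in all.

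Replication-dependent histone genes are expressed mainly in S phase, when new DNA has to be packaged. Their mRNAs are known to end in a stem-loop in place of a poly(A) tail, which the stem-loop binding protein SLBP holds during processing, translation and decay. Some of these genes are also known to give polyadenylated transcripts in cells that have left the cell cycle. Histone variants are expressed throughout the cycle, mostly from polyadenylated mRNAs, and supply chromatin in tissues such as adult liver, where few cells divide. Libraries made by selecting poly(A) RNA capture the stem-loop mRNAs poorly. The labels name the Illumina TruSeq RNA kit and total RNA, and whether poly(A) RNA was selected is not given in the sources used here.

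The stem-loop was looked for in the cluster genes that could be tested, because it is the feature that sets their mRNAs apart from those of the variants. The search, after the stop codon and on the sense strand of GENCODE transcripts of build GRCm38, was for the arms GGNNNT and ANNNCC, 6 bases each and fully complementary, around the 4-base loop TNTN. It was found in 6 of the 8 tested cluster genes and in 1 of the 8 variants, H2afx. The 30 bases around each are given with the 16 bases of the stem-loop in capitals.
Hist1h1c: tccaaaaGGCTCTTTTCAGAGCCaccactc
Hist1h2be: aaccaaaGGCTCTTTTCAGAGCCacccaac
Hist2h3c2: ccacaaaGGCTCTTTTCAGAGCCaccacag
Hist3h2a: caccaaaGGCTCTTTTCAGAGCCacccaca
Hist1h4h: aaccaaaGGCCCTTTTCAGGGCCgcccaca
Hist1h4i: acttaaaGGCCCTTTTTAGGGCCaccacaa
H2afx: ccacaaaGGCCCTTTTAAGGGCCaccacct

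In order, these sites lie at chr13:23739505-23739534 on the plus strand (Hist1h1c), chr13:23585524-23585553 on the minus strand (Hist1h2be), chr3:96238478-96238507 on the minus strand (Hist2h3c2), chr11:58955165-58955194 on the plus strand (Hist3h2a), chr13:23531451-23531480 on the plus strand (Hist1h4h), chr13:22040959-22040988 on the minus strand (Hist1h4i) and chr9:44335233-44335262 on the plus strand (H2afx), all in 3′ untranslated exonic sequence. Over all 45 cluster genes, 44 had an annotated coding transcript and 37 of these carried the stem-loop, 21 to 54 bases after the stop codon. Of the 44, 39 had more than 50 annotated bases after the stop codon, and all 37 were among these. In the rest the annotation ends too early to show whether a stem-loop follows. The 37 sites shared 7 different 16-base sequences, and the one printed for Hist1h1c stood in 18 of them. Of 21877 protein-coding genes in the annotation, 60 (0.274%) held the letters, and 13 of those were outside the cluster names and the 8 variants. The letters were not matched in the annotated transcripts of Hist2h2be and Hist1h2bc. Of the 6 tested cluster genes with the stem-loop, 5 also had AATAAA or ATTAAA, the hexamers of poly(A) signals, farther along the annotated transcript, all but Hist2h3c2. Among the 31 cluster genes with the stem-loop that were too low to test, 11 had such a hexamer. A longer transcript leaves more room for a match, and these shares take no account of length. The deposited exons had a median of 1290 bases over the tested cluster genes and 476 over the untested ones. The transcripts searched came from another GENCODE release, and in some genes their length differs from that of the deposited exons. Hist1h1d had 744 deposited bases and 7425 in the transcript, and Hist1h2be 4374 and 2506. A match is a run of letters and not a mapped RNA end.

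The deleted gene checked the labels. A1cf stood at 8.2 to 12.6 CPM (counts scaled to library size, adjusted by TMM) in KO livers, against 47.9 to 53.8 CPM in WT livers, a log2 fold change of -2.26 ± 0.09 (SE, edgeR adjusted p = 1.14e-08). Libraries held 22129092 to 51082317 counts in KO and 25898171 to 40597491 in WT. Of 13706 genes abundant enough to be tested, 523 were called at an adjusted p under 0.05, 236 higher and 287 lower in KO. The hepatocyte markers were present at 87803 to 109001 CPM in sum in KO and 97419 to 116667 CPM in WT, and the 7 testis markers had 37 counts in KO and 31 in WT in all, with Prm1, Prm2, Tnp1 and Tnp2 at 0.

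Some cluster histone transcripts rose in KO livers, while the most abundant one, Hist1h2bc, did not pass the test. Of the 8 cluster genes that could be tested, 5 rose and 0 fell, where 3.82% of all tested genes were called, 1.72% higher and 2.09% lower. At an unadjusted p under 0.05, 7 were higher and 0 lower, and DESeq2 called 7 higher and 0 lower, limma-voom 6 and 0. The 5 were Hist1h2be, Hist1h4h, Hist2h3c2, Hist2h2be and Hist1h1c, at least 1 each of the linker histone and of the core histones H2B, H3 and H4. All 8 had a log2 fold change above 0, as had 51.8% of all tested genes, and their median was 1.10 against 0.01 for all tested genes. Leaving aside Hist1h2be, which passed the filter on low counts through the KO libraries, 4 of the other 7 rose. A single variant, H2afz, changed, and it fell. In bulk tissue, a change in the number of cells of a type and a change in RNA per cell cannot be told apart.

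Hist1h1c encodes the linker histone H1.2, which sits on the DNA between nucleosomes, and lies at chr13:23738808-23740367. It had 88.5, 164.6, 48.3, 62.9, 63.8 and 101.3 CPM in the KO libraries 574, 584, 588, 591, 602 and 780, against 49.9, 34.5, 38.8, 47.4, 43.2 and 47.8 CPM in the WT libraries 573, 590, 601, 776, 777 and 778. Of the KO libraries, 5 of 6 lay above every WT library, KO 588 lay inside the WT range and KO 584 stood highest. The log2 fold change was 1.02 ± 0.25 (SE, edgeR adjusted p = 0.047). The call was kept without KO 584, KO 588 or KO 602 and lost without any of the other 9 libraries in turn, with adjusted p from 0.024 to 0.104 and log2 fold changes of 0.74 to 1.14. With the library number range as a covariate the call was also lost (edgeR adjusted p = 0.054).

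Hist1h4h and Hist1h4i encode the core histone H4 and lie on chromosome 13, at chr13:23531050-23531522 and chr13:22040636-22041362. Hist1h4h had 2.09, 2.23, 4.98, 3.88, 4.63 and 1.22 CPM in the KO libraries in the same order, against 0.559, 0.586, 1.27, 0.699, 0.623 and 0.715 CPM in the WT libraries. The groups overlapped only through KO 780 and WT 601, and the log2 fold change was 2.11 ± 0.34 (SE, edgeR adjusted p = 0.0044). Hist1h4i averaged 1.62 ± 0.29 CPM in KO and 0.822 ± 0.360 CPM in WT (SD, n = 6 each), with 4 of 6 KO libraries above every WT library. Its log2 fold change of 0.96 ± 0.26 missed the threshold (SE, edgeR adjusted p = 0.058). Leaving out 1 library in turn, it passed in 1 of 12 fits, that without WT 573 (log2 1.18). Over the 12 fits the edgeR adjusted p was 0.028 to 0.124. The coding sequences of H4 genes are close to each other, and 45.8% of the 50-base words of Hist1h4h transcripts and 28.9% of those of Hist1h4i also occurred in transcripts of other genes. The counting command in the header sets no option for fragments that map to several places, and how the aligner reported them is not given in the sources used here, so counts of genes with shared sequence are uncertain.

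Hist2h3c2, a gene of the core histone H3 at chr3:96238108-96239127, was higher in every KO library than in any WT library. Its values were 1.73, 3.17, 1.46, 2.60, 1.13 and 2.10 CPM in KO, against 0.753, 0.916, 0.616, 0.441, 0.989 and 0.501 CPM in WT. The log2 fold change was 1.52 ± 0.28 (SE, edgeR adjusted p = 0.0090). Of its 50-base words, 63.5% also occurred in another gene's transcripts, the highest share among the 8 tested cluster genes. The gene names Hist2h3c1 and Hist2h3b beside it had no count in any library. The deposited exons of Hist2h3c1 lie wholly within those of the gene model Gm20634, and those of Hist2h3b within those of Gm20628.

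The H2B genes did not move alike. Hist2h2be, at chr3:96221119-96223738, had 3.11, 3.89, 2.83, 3.10, 2.01 and 6.01 CPM in KO, against 1.58, 1.65, 1.60, 1.66, 1.32 and 1.43 CPM in WT. Every KO library lay above every WT library, and the log2 fold change was 1.18 ± 0.22 (SE, edgeR adjusted p = 0.010). None of its 50-base words occurred in another gene. Hist1h2be, on the minus strand of chromosome 13, had 1.27, 1.97, 1.38, 1.32, 0.786 and 1.81 CPM in KO, against 0.559, 0.330, 0.369, 0.257, 0.293 and 0.250 CPM in WT. The groups were again separate, with a log2 fold change of 2.01 ± 0.27 (SE, edgeR adjusted p = 0.0013). This gene entered the test through the KO libraries: by library totals without TMM, the scale of the filter, 6 KO libraries and 1 WT library were above its level of 0.369 CPM. Its deposited exons add up to 4374 bases, the longest of the tested cluster genes, and also run over the gene model Gm11398, which had no count.

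Hist1h2bc, the third H2B gene, was the most abundant of the 53 genes per kilobase and did not pass the test. It had 75.0, 103.2, 95.5, 94.4, 102.3 and 76.1 CPM in KO, against 90.7, 80.1, 101.3, 78.5, 78.8 and 90.8 CPM in WT. The ranges lay on each other, and the log2 fold change was 0.07 ± 0.10 (SE, edgeR adjusted p = 0.73). Beside Hist1h2bc, Hist1h2be stood at 0.00768 to 0.0238 of its CPM in KO and 0.00276 to 0.00616 in WT.

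Hist3h2a, at chr11:58954685-58956830, is the cluster gene of the core histone H2A with the most fragments per kilobase, and the only H2A gene that could be tested. It averaged 2.19 ± 0.44 CPM in KO and 1.29 ± 0.42 CPM in WT (SD, n = 6 each), with 4 of 6 KO libraries above every WT library. The log2 fold change of 0.76 ± 0.22 missed the threshold (SE, edgeR adjusted p = 0.074). Leaving out 1 library in turn, it passed in 1 of 12 fits, that without WT 590 (log2 0.88). Over the 12 fits the edgeR adjusted p was 0.041 to 0.156. Its deposited exons overlap Trim17, which had 44 counts over the 12 libraries.

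**Figure D1:**
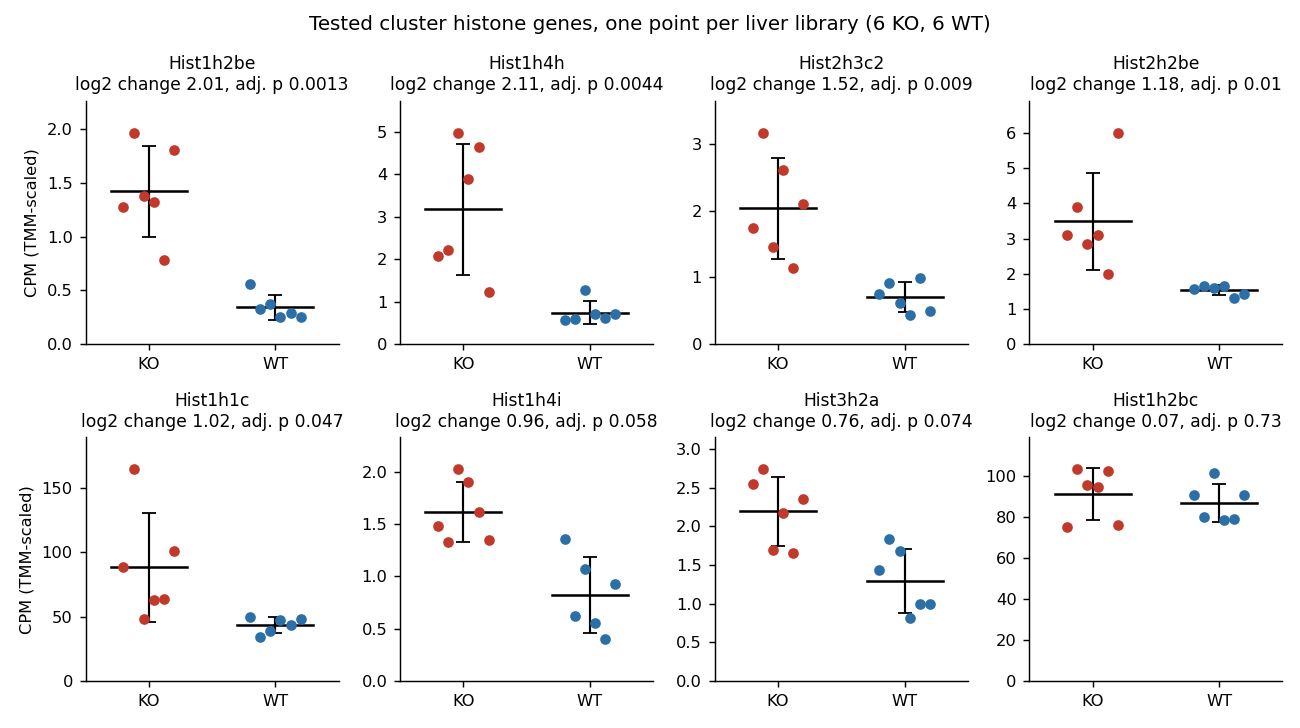
CPM of the 8 tested cluster histone genes in each KO and WT library, with the group mean (long bar) and SD (whiskers), each panel starting at 0. The groups are separate in Hist1h2be, Hist2h3c2 and Hist2h2be, while Hist1h2bc lies at 75.0 to 103.2 CPM in KO and 78.5 to 101.3 CPM in WT.

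Every KO library was above every WT library in 3 of the 8 tested cluster genes, and in 2 of 7 without Hist1h2be, whose separation the filter on low counts could favour. That pattern was shown by 1.33% of all tested genes. Of the 45 cluster genes, 37 lie on chromosome 13, 4 on chromosome 3, 3 on chromosome 11 and 1 on chromosome 6. The calls came from both larger clusters, with 3 of 5 tested genes on chromosome 13 and 2 of 2 on chromosome 3. Within the libraries numbered 573 to 602 (5 KO, 3 WT), the mean log2 CPM of the 5 called genes was higher in KO by 0.84 (Hist2h2be) to 2.06 (Hist1h4h). Within the libraries numbered 776 to 780 (1 KO, 3 WT), the same differences ran from 0.79 (Hist1h4h) to 2.49 (Hist1h2be). The labels do not say what the numbers stand for. In a fit of the libraries 573 to 602 alone, none of these 5 genes passed the threshold (adjusted p 0.067 to 0.302), and in that fit 57 of 13989 genes were called.

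The other 37 cluster genes were too low to be tested, with 4 to 97 counts each over the 12 libraries. Together they held 590 counts in KO libraries and 160 in WT libraries. In sum they stood at 2.83, 2.78, 3.38, 3.26, 3.67 and 4.42 CPM in KO, against 1.12, 1.39, 0.944, 0.662, 0.550 and 0.715 CPM in WT. The lowest KO library was above the highest WT library. Pooled over the libraries of a group, 33 of the 37 genes had a higher CPM in KO and 4 a lower one, counting as higher Hist1h2ae and Hist1h4a, whose counts were equal in both groups, where 63.4% of the 8477 untested genes of 3 to 97 counts were higher in KO. By class, the pooled CPM was higher in KO in 11 of 11 H4 genes, 7 of 7 H3 genes, 8 of 9 H2B genes, 4 of 5 H2A genes and 3 of 5 H1 genes. The 4 lower ones were Hist2h2ac, Hist1h1t, Hist1h1a and Hist3h2bb-ps, named after their values were seen, each with at most 8 counts in all. Hist3h2bb-ps, counted here as an H2B gene, had no annotated coding transcript.

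The same sign did not make each of these genes a call. In 5 of the 37, every KO library was above every WT library, against 0.413% of the untested genes of that count range. They were Hist1h4j, Hist2h4, Hist1h1e, Hist1h1d and Hist1h1b, named after their values were seen. When the filter on low counts was left out, these 5 passed edgeR's threshold, and 9 of the 45 cluster genes were called higher and 0 lower, where 0.862% of the 22733 genes in that fit were called higher. Hist1h1c was not among the 9.

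Hist2h4, an H4 gene on chromosome 3, had 6, 9, 14, 15, 13 and 19 counts in KO and 0, 1, 0, 1, 0 and 1 counts in WT (edgeR adjusted p = 0.00062 without the filter). Hist1h4j, an H4 gene on chromosome 13, had 14, 6, 26, 8, 12 and 15 counts in KO and 5, 2, 4, 2, 2 and 1 counts in WT. These are counts and not levels, and KO 588, with 26 counts of Hist1h4j, is also the deepest library. Of the linker histones H1.3, H1.4 and H1.5, Hist1h1d had 53 counts in KO and 7 in WT, Hist1h1e had 57 in KO and 8 in WT, and Hist1h1b had 14 in KO and 0 in WT. With the WT libraries set together at the 3 counts that a count of 0 allows, and the 14 KO counts taken as they stand, the KO over WT ratio of Hist1h1b was 4.68. The counting error of the KO counts and the spread between animals are not in that ratio. In all, 6 of the 37 genes had no WT count and 0 had no KO count, against 3.36% and 2.42% of the untested genes of that count range.

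At the edge of the rule, Hist1h2ab had 4 counts in KO and 0 in WT, and Hist1h4b had 3 counts in KO and 1 in WT. Just outside it, Hist1h2bl, Hist1h3h and Hist2h2ab had 2 counts each. Of the 70 cluster gene names in the table, 7 had 1 or 2 counts and 18 had none. Sequence shared with other genes went with these low counts. The median share of 50-base words found in another gene's transcripts was 84.2% over the 18 names without a count, 40.4% over the 37 untested genes and 29.5% over the 8 tested ones, against 4.17% over the 8 variants. Some names without a count also overlapped other gene models in their deposited exons. The overlap covered all 1820 bases of Hist2h3c1 (Gm20634) and all 488 bases of Hist2h3b (Gm20628), while Hist1h2bm, for one, overlapped none. Whether shared sequence or such overlap set which genes had counts was not tested.

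Summed over all 45 cluster genes, CPM were 197 ± 45.2 in KO and 137 ± 11.4 in WT (SD, n = 6 each), with every KO library above every WT library. Hist1h2bc and Hist1h1c made up 90.9% of the sum in KO and 95.4% in WT. Without these 2 genes the sum was 15.1 to 19.3 CPM in KO and 5.08 to 7.55 CPM in WT, a ratio of the means of 2.73, and the SD was 1.66 CPM in KO and 1.19 CPM in WT. By class, the ratio of mean summed CPM was 3.35 for H4, 3.10 for H3, 2.04 for H1, 1.68 for H2A and 1.09 for H2B, the class of Hist1h2bc. The ranges of KO and WT did not overlap in H4 and H3.

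**Figure D2:**
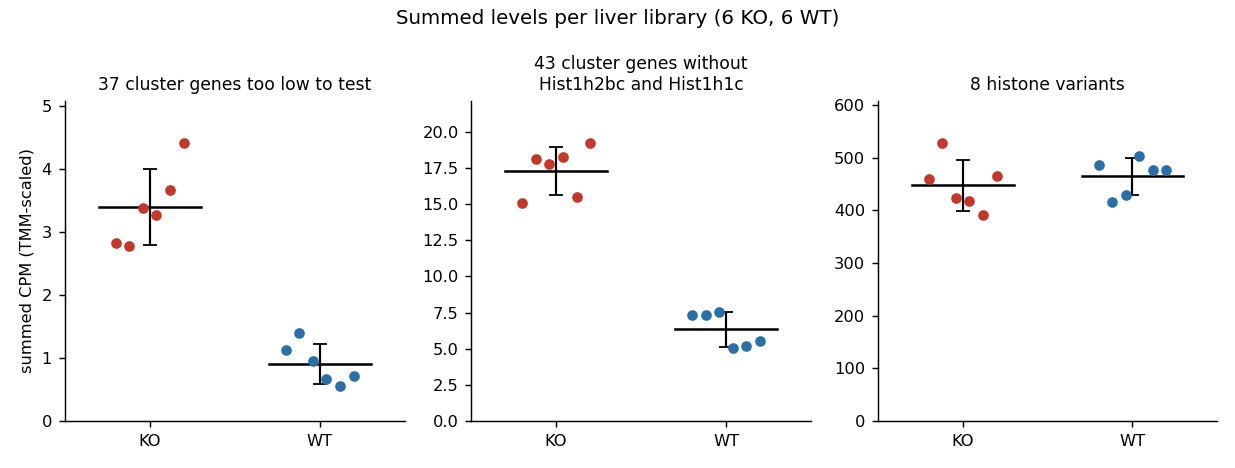
Summed CPM per library of the 37 cluster genes that were too low to test, of the 43 cluster genes without Hist1h2bc and Hist1h1c, and of the 8 variants, with the group mean and SD, each panel starting at 0. KO and WT are separate in the cluster sums (2.78 to 4.42 against 0.550 to 1.39 CPM in the first) and overlap in the sum of the variants.

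The variants showed another pattern. By edgeR, of 8, 1 fell, 0 rose and 7 did not pass the test (1 higher and 2 lower at an unadjusted p under 0.05, and 0 called higher by DESeq2 or limma-voom), where 2.09% of all tested genes were called lower. Their median log2 fold change was -0.07, with 2 above 0 and 6 below. Summed over the 8, CPM were 447 ± 48.4 in KO and 464 ± 34.4 in WT (SD, n = 6 each).

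H2afz encodes H2A.Z, an H2A variant placed at gene starts and regulatory regions by the SRCAP and EP400 complexes. It lies at chr3:137864487-137866922 and had 16.5, 19.5, 22.1, 23.9, 19.9 and 16.7 CPM in the KO libraries, against 29.7, 27.7, 28.6, 27.0, 28.3 and 29.9 CPM in the WT libraries. Every KO library lay below every WT library, as in 1.97% of all tested genes. The log2 fold change was -0.53 ± 0.09 (SE, edgeR adjusted p = 0.0063), and the call was kept without each library in turn (log2 -0.59 to -0.48). In the libraries 573 to 602 alone it was -0.48 with an adjusted p of 0.111. Of the 50-base words of its transcripts, 16.9% also occurred in another gene.

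H2afv encodes H2A.Z.2, a close relative of the protein of H2afz from another gene, at chr11:6427229-6444443. It had 19.9, 22.0, 25.7, 27.1, 28.2 and 18.3 CPM in KO, against 22.9, 23.3, 28.4, 17.9, 19.8 and 17.6 CPM in WT, a log2 fold change of 0.12 ± 0.14 (SE, edgeR adjusted p = 0.64). The ratio of H2afz to H2afv CPM was 0.705 to 0.913 in KO and 1.01 to 1.70 in WT, so its ranges did not overlap either. The numerator of that ratio is the gene already called.

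Of the other H2A variants, H2afj (H2A.J) averaged 10.7 ± 3.04 CPM in KO and 7.64 ± 1.57 CPM in WT (SD, n = 6 each), with a log2 fold change of 0.48 ± 0.19 (SE, edgeR adjusted p = 0.16). KO 588, KO 591 and KO 602 stood at 13.2 to 13.5 CPM, above the WT maximum of 10.6 CPM, and the other 3 KO libraries lay within the WT range. H2afy, which encodes the macroH2A1 variant with its large non-histone domain, had 46.3 to 55.8 CPM in KO and 53.0 to 61.0 CPM in WT. Its log2 fold change of -0.17 ± 0.06 missed the threshold (SE, edgeR adjusted p = 0.13), and DESeq2 gave it an adjusted p of 0.044. H2afx, whose product is phosphorylated around DNA breaks, averaged 6.02 ± 0.87 CPM in KO and 6.48 ± 0.86 CPM in WT (SD, n = 6 each), with a log2 fold change of -0.10 ± 0.12 (SE, edgeR adjusted p = 0.68). It is the variant that carries the stem-loop printed above.

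The H3.3 genes H3f3a and H3f3b encode the replacement form of H3 that is laid down outside S phase. H3f3b had 144.5 to 248.9 CPM in KO and 144.8 to 234.0 CPM in WT, and its log2 fold change was 0.00 ± 0.15 (SE, edgeR adjusted p = 0.998). H3f3a had 29.0 to 35.0 CPM in KO and 30.5 to 38.3 CPM in WT, with a log2 fold change of -0.08 ± 0.07 (SE, edgeR adjusted p = 0.57). H3f3a overlaps Gm17275 and H3f3aos on the other strand, which had 489 and 105 counts against its own 11612. Without a strand setting in the counting, fragments in the overlap cannot be told apart by strand. H1f0, the linker histone H1.0 of non-dividing cells, had 102.2 to 145.6 CPM in KO and 110.0 to 129.7 CPM in WT, with a log2 fold change of -0.05 ± 0.09 (SE, edgeR adjusted p = 0.79). The ratio of Hist1h1c to H1f0 CPM was 0.458 to 1.13 in KO and 0.295 to 0.416 in WT.

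**Figure D3:**
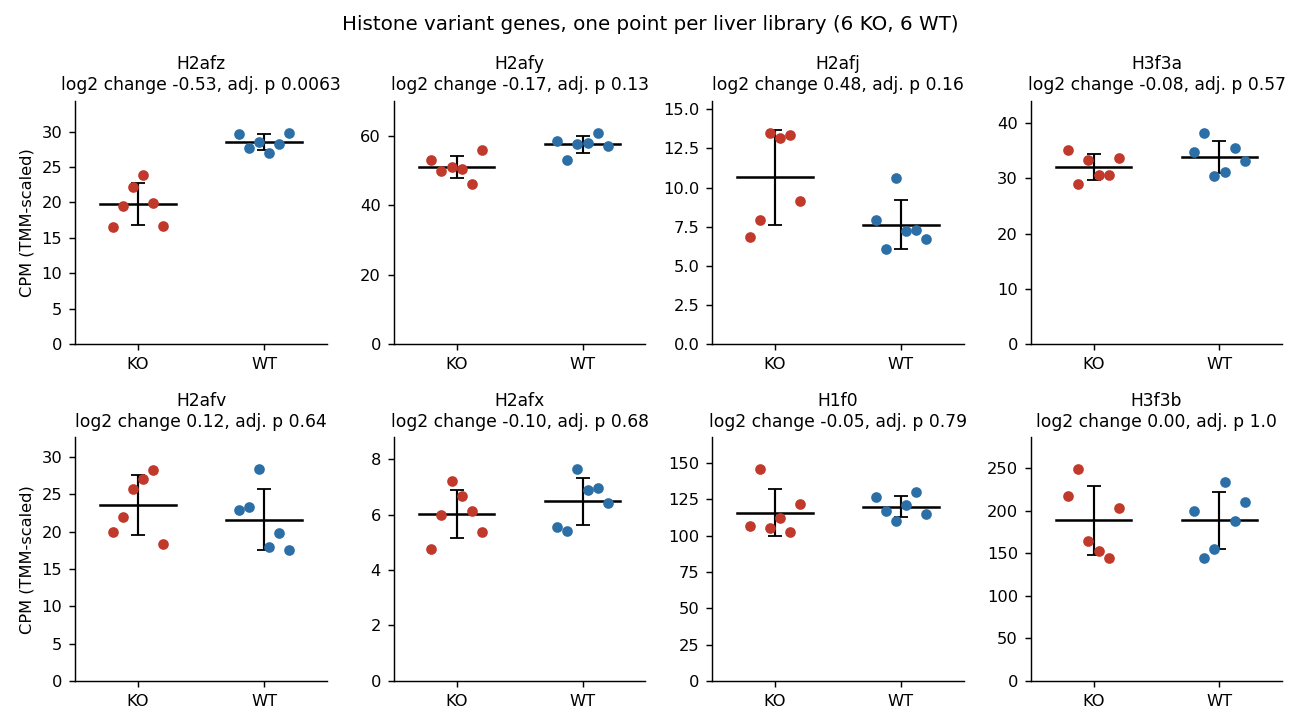
CPM of the 8 histone variant genes in each KO and WT library, with the group mean (long bar) and SD (whiskers), each panel starting at 0. H2afz is the variant whose groups do not overlap (16.5 to 23.9 CPM in KO, 27.0 to 29.9 CPM in WT).

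Per kilobase of exon, levels differed by far more between genes than between genotypes. As FPKM (CPM per kilobase of exon), averaged over the 12 libraries, Hist1h2bc stood at 120.8, H3f3b at 63.4, H1f0 at 51.5 and Hist1h1c at 42.3. H2afv and H2afz followed at 13.8 and 13.6. Of the other tested cluster genes, Hist1h4h had the highest level, at 4.14, and Hist1h2be the lowest, at 0.202. The rise in KO was measured in Hist1h1c at a level like that of the main variants, and in the other 4 called genes at 0.202 to 4.14 FPKM.

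**Figure D4:**
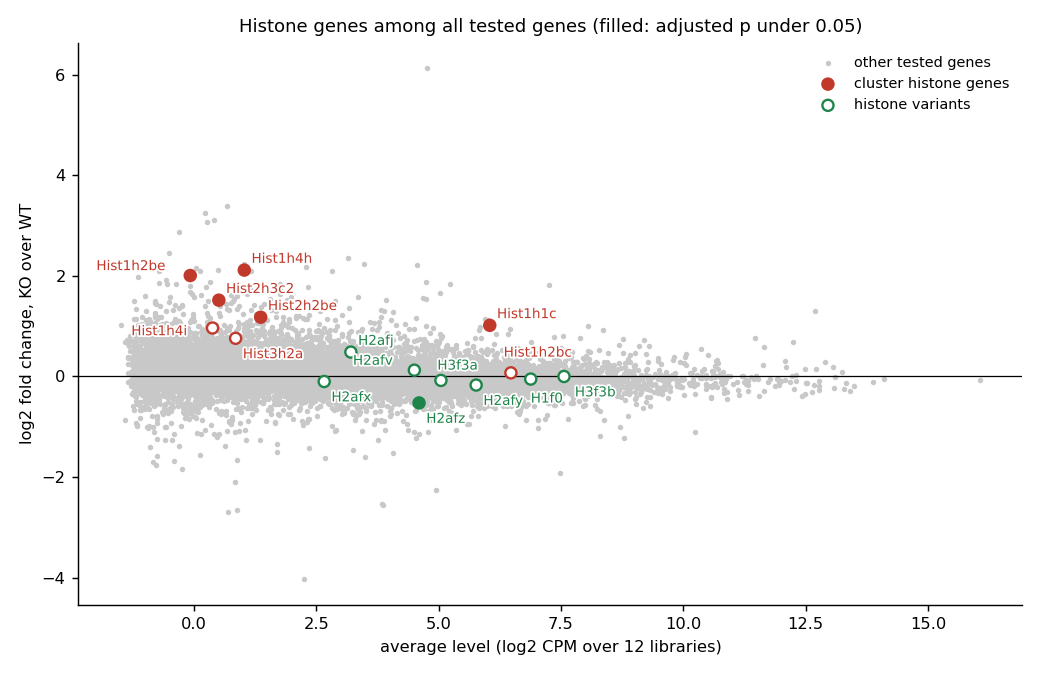
Log2 fold change (KO over WT) against average log2 CPM for the 13706 tested genes, with the cluster histone genes in red and the variants in green, filled where the adjusted p is under 0.05. The 5 filled red points lie at log2 fold changes of 1.02 to 2.11, and the filled green point, H2afz, at -0.53.

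Genes that act on histone mRNAs and proteins were not called. Of the list of histone mRNA 3′ end processing and decay, 26 genes were tested and 0 passed in either direction by edgeR (1 higher and 4 lower at an unadjusted p under 0.05), with a median log2 fold change of -0.06. The smallest p-values in it were those of Lsm11, a subunit of the U7 particle that cuts histone pre-mRNA (log2 -0.52 ± 0.15 (SE), edgeR adjusted p = 0.075), and of Upf1, a helicase of mRNA decay (log2 -0.21 ± 0.07 (SE), edgeR adjusted p = 0.12). Lsm11 had 1.61 to 2.51 CPM in KO and 2.24 to 3.64 CPM in WT. Leaving out 1 library in turn, it passed in 1 of 12 fits, that without WT 590 (edgeR adjusted p 0.041 to 0.151 over the fits). The list summed to 541 to 610 CPM in KO and 591 to 614 CPM in WT. Of 29 tested chaperones and assembly factors, 0 passed (2 higher and 2 lower at an unadjusted p under 0.05) and the median was -0.01, with the smallest p-values in Nap1l1 (log2 -0.30, edgeR adjusted p = 0.10) and Hira, which places H3.3 (log2 -0.33, edgeR adjusted p = 0.12). By DESeq2 the adjusted p was 0.022 for Lsm11 and 0.049 for Nap1l1, its only calls in these lists, and limma-voom made none.

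Cell cycle genes were measured because cluster histone mRNAs are made in S phase. Of 28 tested genes of S phase and DNA replication, 0 passed by edgeR, DESeq2 or limma-voom (1 higher and 3 lower at an unadjusted p under 0.05), 13 were above 0 and the median log2 fold change was -0.03. Their summed level was 217 to 290 CPM in KO and 241 to 327 CPM in WT. The smallest p-values were those of E2f1, a transcription factor of S phase entry (log2 0.67, edgeR adjusted p = 0.13), and Prim1, a primase subunit (log2 -0.62, edgeR adjusted p = 0.15). Of 11 tested genes of G2 and M phase, 0 passed by edgeR or limma-voom (4 higher and 0 lower at an unadjusted p under 0.05), 10 were above 0 and the median was 0.54, and they summed to 9.12 to 27.7 CPM in KO and 8.23 to 16.99 CPM in WT. Mki67, the Ki-67 proliferation marker, had 0.925 to 5.63 CPM in KO and 0.293 to 1.97 CPM in WT (log2 1.51 ± 0.51 (SE), edgeR adjusted p = 0.12), and Foxm1, a transcription factor of mitotic genes, a log2 fold change of 0.93 (edgeR adjusted p = 0.12). DESeq2 gave Mki67 an adjusted p of 0.034. Among variants outside the rule, 2 were tested and 0 passed by edgeR or limma-voom (2 higher and 0 lower at an unadjusted p under 0.05). They were Cenpa, the centromeric H3 variant (log2 0.57, edgeR adjusted p = 0.11), and H2afy2, the gene of macroH2A2 (log2 0.41, edgeR adjusted p = 0.20). DESeq2 called Cenpa higher. With its untested genes, this list summed to 5.21 to 9.65 CPM in KO and 3.54 to 5.38 CPM in WT.

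**Figure D5:**
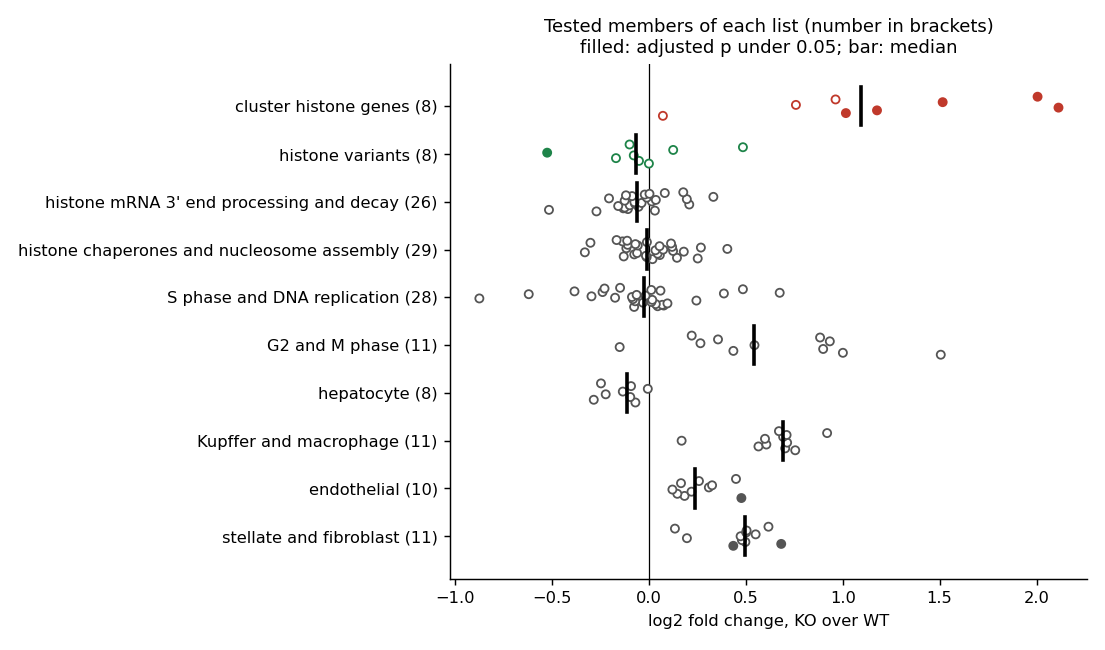
Log2 fold changes (KO over WT) of the tested members of 10 lists, with the number tested in brackets, the median as a bar and filled points where the adjusted p is under 0.05. The cluster histone genes have a median of 1.10, the variants -0.07, the S phase list -0.03 and the G2 and M phase list 0.54.

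Among markers of other liver cells, few passed the test, and the background over all tested genes was 1.72% called higher and 51.8% above 0. Kupffer and macrophage markers were above 0 in 11 of 11 (median log2 fold change 0.69). By edgeR 0 were called, with 10 at an unadjusted p under 0.05, DESeq2 called 3 (Cd5l, Clec4f and Csf1r) and limma-voom 0. They summed to 138 to 491 CPM in KO and 134 to 222 CPM in WT. Endothelial markers were above 0 in 10 of 10 (median 0.24, summed CPM of 259 to 310 in KO and 167 to 313 in WT), with Stab2 called higher. Of them, 2 were higher and 0 lower at an unadjusted p under 0.05, and DESeq2 and limma-voom each called Stab2 alone. Stellate and fibroblast markers were above 0 in 11 of 11 (median 0.50, summed CPM of 279 to 375 in KO and 161 to 290 in WT), with Pdgfrb and Lrat called higher. In this list 6 were higher and 0 lower at an unadjusted p under 0.05. DESeq2 and limma-voom each called 3 higher (Colec11, Lrat and Pdgfrb). Csf1r and Clec4f, both Kupffer markers, passed when KO 584 was left out (edgeR adjusted p = 0.011 and 0.0074). Neither passed in the other 11 fits that left out 1 library (edgeR adjusted p up to 0.197 and 0.210). Leaving out 1 library, the call of Stab2 was kept without KO 584, KO 780 or WT 778 alone (adjusted p 0.026 to 0.103 over the 12 fits). That of Pdgfrb was lost without KO 574, WT 573 or WT 778 (0.025 to 0.056), and that of Lrat without KO 574, KO 588, WT 573, WT 776 or WT 777 (0.011 to 0.063). Hepatocyte markers were above 0 in 0 of 8 (median -0.12). The sums of the Kupffer, endothelial and stellate markers overlapped between the groups, while that of the untested cluster genes did not. KO 584 had the lowest value of the KO libraries both for the Kupffer markers (138 CPM) and for the untested cluster genes (2.78 CPM), and the highest Hist1h1c of all libraries. KO 574 was close to it for the untested cluster genes (2.83 CPM), with 265 CPM of the Kupffer markers. KO 780 had the highest value of the untested cluster genes (4.42 CPM), with 209 CPM of the Kupffer markers. KO 602, highest for the Kupffer markers (491 CPM), stood at 3.67 CPM for the untested cluster genes. The part of these cell types in the histone values was not tested.

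Blood precursors, some of which divide, were followed by their own markers. By edgeR, DESeq2 and limma-voom, 0 of 7 tested erythroid genes passed (0 higher and 1 lower at an unadjusted p under 0.05), and 2 were above 0. Alas2, the erythroid enzyme of haem synthesis, was called lower with the number range as a covariate (edgeR adjusted p = 0.023). The list summed to 189 to 279 CPM in KO and 189 to 308 CPM in WT. Of 3 tested genes of haematopoietic progenitors, 0 passed by any of the 3 tools, 0 had an unadjusted p under 0.05, and 2 were above 0, with sums of 4.79 to 19.6 CPM in KO and 3.33 to 13.4 CPM in WT. By edgeR no call was made among the cholangiocyte, T and NK, B and plasma, or neutrophil and monocyte lists, with 5, 3, 7 and 4 genes tested, of which 0, 1, 0 and 1 had an unadjusted p under 0.05. Csf3r, of the neutrophil list, passed without KO 584 (adjusted p = 0.025), without WT 590 (0.045), with library totals (0.043) and by DESeq2 (0.011), and Ptprc, of the T and NK list, passed without WT 776 (0.019) and by DESeq2 (0.031). The median log2 fold changes of these 4 lists were -0.14, 0.40, 0.19 and 1.00.

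RNAs that carry no poly(A) tail for other reasons, such as Rmrp, Rpph1 and Rn7sk, were counted as a reading of how much such RNA the libraries held. None reached the level of testing. The list had 237 counts in KO and 212 in WT, with sums of 0.990 to 1.79 CPM in KO and 0.843 to 1.66 CPM in WT, and 7 of its genes had no count. These ranges overlapped. At so few counts they set no close bound on how such RNA was captured, and its part in the histone values was not tested.

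In the 300 bases around the annotated start (250 before and 50 after, RefSeq, GRCm38.p6), 39 of the 45 cluster genes and 7 of the 8 variants had an entry. CCAAT, on either strand, stood in 30 of the 39 cluster genes and 5 of the 7 variants, against 37.4% of 32851 promoters. TATAAA stood in 26 of the 39 and 1 of the 7, against 13.6%. ATTTGCAT, the octamer, stood in 9 of the 39, 5 of them H2A and 4 of them H2B genes, and in 1 of the 7 variants, against 1.74%. Of the tested cluster genes, Hist1h2bc and Hist2h2be had no entry. Among the others, Hist1h2be had CCAAT and the octamer, Hist3h2a the same, Hist1h1c and Hist2h3c2 CCAAT alone, Hist1h4i TATAAA alone and Hist1h4h none of them. The other annotated window of Hist1h2be, chr13:23621045-23621344, had CCAAT without the octamer. Relative to the annotated start, the CCAAT of Hist2h3c2 stood at 14, past it, and the TATAAA of Hist1h4i at -137. A match is a run of letters and not a bound site.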

How the data were processed

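The authors deposited unnormalized fragment counts for each gene name. Per the file headers these came from featureCounts 1.5.0-p2 on GENCODE M8 exons, with no option set for strand or for fragments mapping to several places. STAR, DESeq2 and mm10 are named in the submitters' processing notes. The exonic length in the deposited table is another value per gene and was used for levels per kilobase. The members, lists and tests were chosen with earlier results of these data known. Libraries were grouped by the genotype in their labels and named by the number in their titles.

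Counts were fitted over the whole table with edgeR 4.0.16 (R 4.3.3, limma 3.58.1): filterByExpr (minimum count 10), TMM, and the robust quasi-likelihood test with genotype as the only term, adjusted by Benjamini and Hochberg over 13706 genes at 0.05. "Rose" and "fell" mean past that threshold. SE is the log2 fold change over the square root of F. A count of 0 allows up to 3 counts, and this floor covers counting error only. Sums over genes were described without a test. Named genes were the 8 variants, all tested cluster genes (among them the highest per kilobase of each class), genes at the edge of the rule, up to 4 called genes of a list or else the 2 smallest p-values, and A1cf. For the marker lists without a call, the 2 are not all printed.

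On simulated data of 13706 genes for KO against WT, the test recovered 40% of genes changed 1.5-fold, 76% at 2-fold, 94% at 4-fold and 100% at 8-fold, and 3.12% of its calls were false. Alternatives were RLE size factors, library totals, limma-voom, DESeq2 1.42.0, a filter at a mean of 1 CPM, no filter on low counts, the number range as a covariate or alone, and leaving out libraries or the highest genes. Leaving out KO 584 and KO 588 together, and the 2 highest cluster genes, was chosen after seeing the data. Stem-loops were read from GENCODE M21 transcripts and promoters from RefSeq by gene symbol or synonym.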

Additional observations from a re-analysis of the deposited data

Results flagged for a closer look

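In WT 601, Hist1h4h stood at 1.27 CPM, far from the other 5 WT libraries at 0.559 to 0.715 CPM. In KO 584, the summed CPM of the 45 cluster genes was 285.9, far from the other 5 KO libraries at 161.5 to 196.7, and Hist1h1c made up 57.6% of that sum. These were 2 of 38 groups of 6 libraries examined, and chance alone marks about 1 in 20 groups. Without KO 584 the log2 ratio of the mean cluster sums was 0.39, against 0.53 with it.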

How the results depend on the processing

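No paired analysis was made, because the labels name no pairs of KO and WT animals. The count of cluster genes called higher was 9 (of 45) without the low-count filter and 1 (of 10) in libraries 573 to 602 alone, where the gene was Hist2h4, against 5 (of 8). Variants called lower were 2 by DESeq2, H2afz and H2afy, and 0 in libraries 573 to 602 alone, against 1. Leaving out each library in turn, 4 to 5 cluster genes were higher and 0 lower, and 0 variants were higher and 1 lower. The log2 ratio of the mean cluster sums, 0.53, was then 0.39 to 0.58, and it was 1.08 without Hist1h2bc and 1.45 without Hist1h2bc and Hist1h1c. The log2 ratio of the variant sums, -0.05, was -0.11 to -0.02 leaving out each library, and 0.00 in libraries 573 to 602 alone. Without KO 584 and KO 588 together, 5 cluster genes were higher and 1 variant lower. The other alternatives kept these results on the same side, with 4 to 7 cluster genes called higher. Hist1h1c lost its call with library totals (adjusted p = 0.059), without the filter (0.092) and with the number range as a covariate (0.054). DESeq2 called Hist1h4i and Hist3h2a (adjusted p = 0.011 and 0.018), and limma-voom Hist1h4i (0.040). Over all genes, 523 calls (236 higher, 287 lower) became 266 higher and 139 lower with library totals, 1172 calls with DESeq2, 57 in libraries 573 to 602 alone, 206 without the 2 deepest libraries, 272 without KO 584 and KO 588 together, and 266 to 638 leaving out each library. Depth limits the 37 untested cluster genes, whose values are single counts in many libraries.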
